A study of Homo sapiens with 3 samples.

Results

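The EGF family comprises the secreted ligands of the ERBB receptor tyrosine kinases, and 9 of its genes were followed here in SKBR3 cells, a breast cancer line long in culture and known for ERBB2 amplification: EGF, TGFA, AREG, EREG, BTC, HBEGF, EPGN, NRG1 and NRG2. They were chosen by name, as those probe sets whose only gene symbol in the platform annotation is one of these names. Of the 9 genes, 7 had such probe sets, 21 in all, out of 41091 probe sets with 1 symbol for 19775 genes. The annotation used here listed none for AREG and EPGN, which are therefore not analysed. EGF was read by 1 probe set, EREG and BTC by 2 each, TGFA and NRG2 by 3 each, HBEGF by 4 and NRG1 by 6.

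ERBB ligands are made as membrane-bound precursors, and metalloproteases such as ADAM17 and ADAM10 release the active EGF-like part. EGF, TGFA and AREG bind the EGF receptor, HBEGF, EREG and BTC bind the EGF receptor and ERBB4, and the neuregulins NRG1 and NRG2 bind ERBB3 and ERBB4. ERBB2 has no known ligand of its own and acts as the preferred partner of the others, so that ligands matter also in cells with amplified ERBB2. Release of HB-EGF, the product of HBEGF, is a described step between the G protein-coupled oestrogen receptor and the EGF receptor in breast cancer cells. EREG and HBEGF are also known as genes that respond early to growth factors and stress.

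The cells were kept for 4 h in medium with charcoal-stripped serum, from which steroids are depleted, and then for 3 h with 0.1% ethanol (vehicle), with 1 µM estradiol, or with 1 µM ERα17p, a peptide derived from oestrogen receptor α. One line was used throughout, and each condition had 1 array, 3 in all. The differences below therefore carry no error and no p-value, and none was repeated. The sources used here do not say in what ERα17p was dissolved. The deposited values lie on both sides of 0, as log2 distances from a baseline taken off each probe set by the authors, with base 2 assumed from the RMA method. Arrays can be compared within a probe set, while expression levels cannot be read, and neither ERBB2 amplification nor the levels of luminal, leukocyte, fibroblast or endothelial markers could be checked. A difference of at least 1.5-fold (0.585 log2 units) is called "lower" or "higher" below.

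The vehicle array stood apart from the other 2. Values over all probe sets had a standard deviation of 0.27 log2 units on it, against 0.12 with estradiol and 0.13 with ERα17p. At least 1.5-fold above the baseline lay 2.88% of the probe sets with 1 symbol on the vehicle array, 0.027% with estradiol and 0.054% with ERα17p. The ACTB control probe sets serve to compare RNA integrity. Their 3′ minus 5′ difference, counted from the baseline, was 0.30 with vehicle, 0.02 with estradiol and -0.04 with ERα17p. For GAPDH it was 0.05, 0.01 and -0.03. Since a baseline was taken off each probe set, these values compare the arrays and do not show how intact any RNA was. The part of the vehicle array, and of its RNA, in the differences below was not tested. Both comparisons with vehicle share it, and they are given side by side without being read as separate evidence.

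EREG and HBEGF, the members whose differences are described first, start from promoters of unlike composition, shown here with BTC, which lies in 1 cluster with EREG, AREG and EPGN on chromosome 4. Each sequence is the 250 bases before the RefSeq gene start on GRCh38.p14, 5′ to 3′ on the gene's strand: chr4:74364895-74365144 (plus strand) for EREG, chr5:140346604-140346853 (minus strand) for HBEGF and chr4:74794524-74794773 (minus strand) for BTC. Capitals mark matches to the motifs searched on both strands.
EREG: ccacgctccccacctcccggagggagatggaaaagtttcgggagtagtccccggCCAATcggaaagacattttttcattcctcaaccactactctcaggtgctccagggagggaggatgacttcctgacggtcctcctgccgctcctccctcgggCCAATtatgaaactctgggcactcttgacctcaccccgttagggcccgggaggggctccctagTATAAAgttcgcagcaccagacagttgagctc
HBEGF: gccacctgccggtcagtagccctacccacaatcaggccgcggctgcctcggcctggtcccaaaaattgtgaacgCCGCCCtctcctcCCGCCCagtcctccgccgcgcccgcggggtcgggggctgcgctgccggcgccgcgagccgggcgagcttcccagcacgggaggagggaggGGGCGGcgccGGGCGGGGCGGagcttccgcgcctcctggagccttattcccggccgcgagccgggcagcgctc
BTC: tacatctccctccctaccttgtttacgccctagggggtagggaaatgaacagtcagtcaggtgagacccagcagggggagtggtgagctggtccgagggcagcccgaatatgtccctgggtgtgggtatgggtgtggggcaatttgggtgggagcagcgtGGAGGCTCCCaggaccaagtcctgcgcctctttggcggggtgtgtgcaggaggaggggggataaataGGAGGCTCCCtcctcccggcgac
The motifs were the TATA box (TATAAA), the CCAAT box (CCAAT), SP1 (GGGCGG), AP-1 (TGANTCA), the cAMP response element (TGACGTCA), the E-box (CACGTG) and, by name, the NF-kB, SRF CArG and oestrogen response elements.

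In the EREG window there was 1 TATA box, 32 to 27 bases before the start, and 2 CCAAT boxes. A TATA box occurred in 10.7% of 35116 such windows of all genes and a CCAAT box in 32.0%. The HBEGF window held 5 SP1 matches, of which 2 share 1 base, and none of the other motifs. SP1 letters occurred in 42.6% of all windows. The BTC window had 2 NF-kB matches, a motif found in 9.96% of windows. The EGF window, also searched and not shown, had 1 CCAAT box and 1 AP-1 match, a motif found in 6.57% of windows. GC content was 58.0% for EREG, 76.4% for HBEGF and 62.0% for BTC, with a median of 58.0% over all windows. No motif searched was found in both the EREG and the HBEGF window.

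EREG encodes epiregulin, and its 2 probe sets disagreed. On 205767_at, designed on the RefSeq mRNA, the value was 2.32 log2 units with vehicle, 0.16 with estradiol and -0.08 with ERα17p. The vehicle array was thus the high one, and both treated arrays lay near the baseline. Estradiol minus vehicle was -2.17 (4.49-fold), ERα17p minus vehicle was -2.41 (5.31-fold) and estradiol minus ERα17p was 0.24. After quantile normalisation of the 3 arrays the differences from vehicle shrank to -0.92 and -1.23, still past 1.5-fold. That step was applied to the deposited values, after RMA and with the baseline taken off, so it ranks distances from the baseline, not expression levels. It gives all arrays the same spread, so it narrows the wider vehicle array and shrinks such differences by construction, here and below. Passing or missing 1.5-fold after it therefore does not measure how firm a difference is. Of all 41091 probe sets, 60 lay as low or lower with estradiol against vehicle, this one included, and 32 with ERα17p. On 1569583_at, whose listed record is not a RefSeq mRNA, the values were -0.24 with vehicle, 0.05 with estradiol and 0.07 with ERα17p. Here the vehicle array was the lowest, with differences of 0.29 and 0.31 that did not pass 1.5-fold.

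HBEGF, the gene of heparin-binding EGF-like growth factor, was read by 4 probe sets that fell into pairs. The probe set 203821_at, on the RefSeq mRNA, had 1.85 with vehicle, 0.10 with estradiol and 0.04 with ERα17p. On 38037_at, whose listed record is not a RefSeq mRNA, the values were 1.41, 0.02 and 0.20 in the same order. Both were high on the vehicle array alone. Estradiol minus vehicle was -1.75 (3.36-fold) on the first and -1.38 (2.61-fold) on the second, and ERα17p minus vehicle was -1.81 (3.50-fold) and -1.21 (2.31-fold). After quantile normalisation 203821_at had -0.80 with estradiol and -0.89 with ERα17p, and 38037_at had -0.72 and -0.48, the last of which missed 1.5-fold. The other pair, 222076_at and 244857_at, for which the annotation lists no record, did not follow. The value of 222076_at was -0.11 with vehicle, -0.09 with estradiol and 0.15 with ERα17p. That of 244857_at was 0.07, -0.16 and 0.01. On this pair, differences from vehicle ran from -0.23 to 0.26.

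The gap between probe sets of 1 gene was wide for these members. For EREG the highest and lowest probe set differed by 2.45 log2 units in estradiol minus vehicle and by 2.72 in ERα17p minus vehicle. For HBEGF the gap was 1.77 and 2.07. Over 10523 genes with at least 2 probe sets the median gap was 0.29 and 0.27. A gap at least as wide as that of EREG was found in 12 genes with estradiol and 6 with ERα17p, EREG included. One at least as wide as that of HBEGF was found in 41 and 15, HBEGF included. That the probe sets of these genes disagree was known when the family was chosen, so these counts only describe how far. A gap this wide also needs a probe set with a large difference from vehicle, which most genes lack. It is not particular to the family: probe sets of CXCL2, described below, ran from -4.43 to -0.11 with estradiol. In estradiol minus ERα17p, where the vehicle array plays no part, the gaps were 0.26 for EREG and 0.30 for HBEGF, against a median of 0.23. Which transcripts the disagreeing probe sets bind was not tested.

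**Figure D1:**
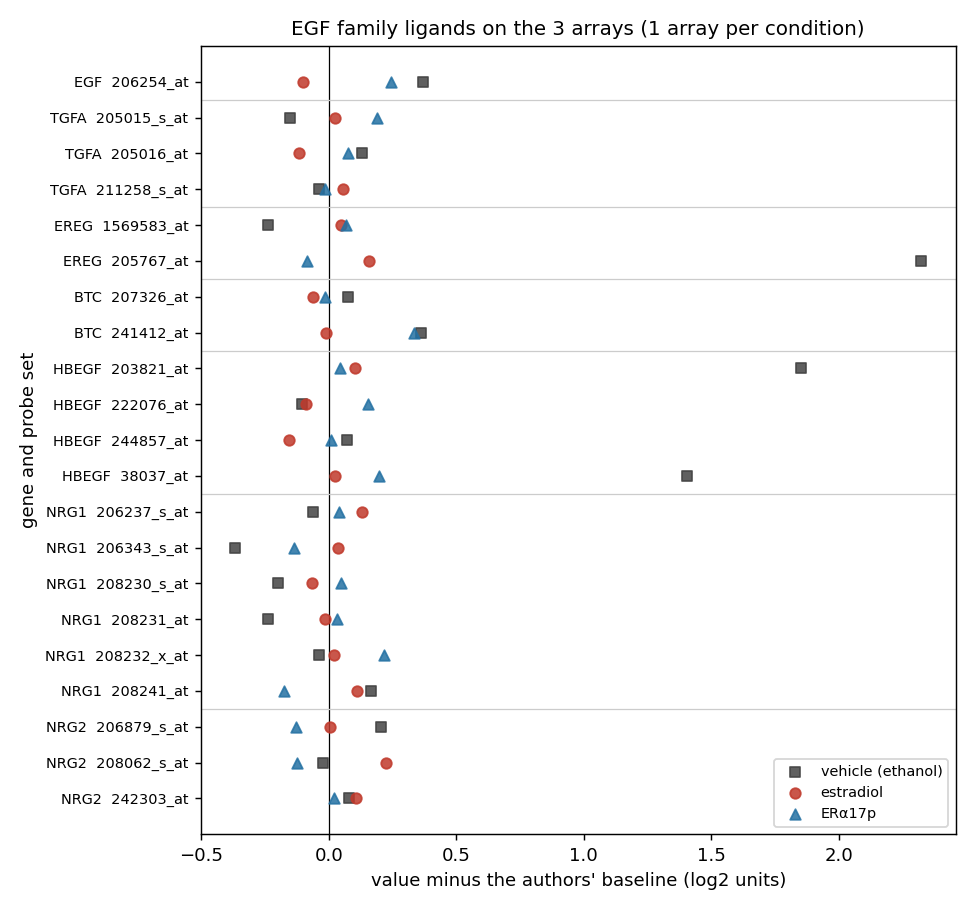
Value of each of the 21 member probe sets on the vehicle (squares), estradiol (circles) and ERα17p (triangles) array, in log2 units from the authors' baseline, with 1 array per condition and no error bars. On 205767_at (EREG), 203821_at and 38037_at (HBEGF) the vehicle array lies at 2.32, 1.85 and 1.41, while all other points lie between -0.37 and 0.37.

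Among the other ligands of the EGF receptor, no probe set passed 1.5-fold. EGF, the founding member, had 0.37 with vehicle, -0.10 with estradiol and 0.24 with ERα17p on its only probe set. Its largest difference was -0.47 for estradiol minus vehicle, and estradiol minus ERα17p was -0.35. In the vehicle comparison 2405 of 41091 probe sets lay as low or lower, and 1201 did so in the comparison of both treatments.

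TGFA encodes transforming growth factor α, an EGF receptor ligand that many carcinoma cells make themselves. On 205016_at the values were 0.13 with vehicle, -0.12 with estradiol and 0.08 with ERα17p. On 205015_s_at they were -0.15, 0.02 and 0.19, and on 211258_s_at -0.04, 0.06 and -0.01. The arrays kept no common order over these 3 probe sets, and the widest difference was 0.34 (ERα17p minus vehicle on 205015_s_at). BTC, betacellulin, had 0.08, -0.06 and -0.02 on 207326_at and 0.36, -0.01 and 0.34 on 241412_at, in the order vehicle, estradiol, ERα17p. Estradiol was the lowest array on both, by -0.14 and -0.37 against vehicle and by -0.05 and -0.35 against ERα17p.

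The neuregulin genes did not share the pattern of EREG and HBEGF. NRG1 was the lowest on the vehicle array for 5 of its 6 probe sets, with values there from -0.37 to 0.16. With estradiol they ran from -0.06 to 0.13 and with ERα17p from -0.17 to 0.22. Its widest difference was 0.40, for estradiol minus vehicle on 206343_s_at. The exception, 208241_at, had 0.16 with vehicle, 0.11 with estradiol and -0.17 with ERα17p. NRG2 had 0.21, 0.01 and -0.13 on 206879_s_at, -0.02, 0.22 and -0.12 on 208062_s_at, and 0.08, 0.11 and 0.02 on 242303_at, in the same order. On each of the 3, estradiol exceeded ERα17p, by 0.13, 0.35 and 0.09. None of these passed 1.5-fold.

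By count, 3 of 21 member probe sets were lower with estradiol than with vehicle, beside 3.71% of all probe sets, and 0 were higher, beside 1.38%. With ERα17p against vehicle 3 of 21 were lower, beside 2.76%, and 0 higher, beside 0.886%. The 3 probe sets were the same in both, 1 of EREG and 2 of HBEGF. Between estradiol and ERα17p 0 of 21 passed in either direction, where 0.29% of all probe sets were lower and 0.314% higher. The median over the 21 probe sets was 0.02 for estradiol minus vehicle, -0.06 for ERα17p minus vehicle and -0.05 for estradiol minus ERα17p, and over all 41091 it was 0.02, 0.03 and -0.02. The family's medians thus lay close to those of all probe sets. Set against the authors' baseline in place of the vehicle array, 0 of 21 passed for either treatment, and 205767_at had 0.16 with estradiol and -0.08 with ERα17p. Of all probe sets with 1 symbol, 0.027% lay 1.5-fold above that baseline with estradiol and 0.056% below it. With ERα17p the shares were 0.054% and 0.029%. Since almost no probe set passed, the 0 of 21 says nothing particular to the family.

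**Figure D2:**
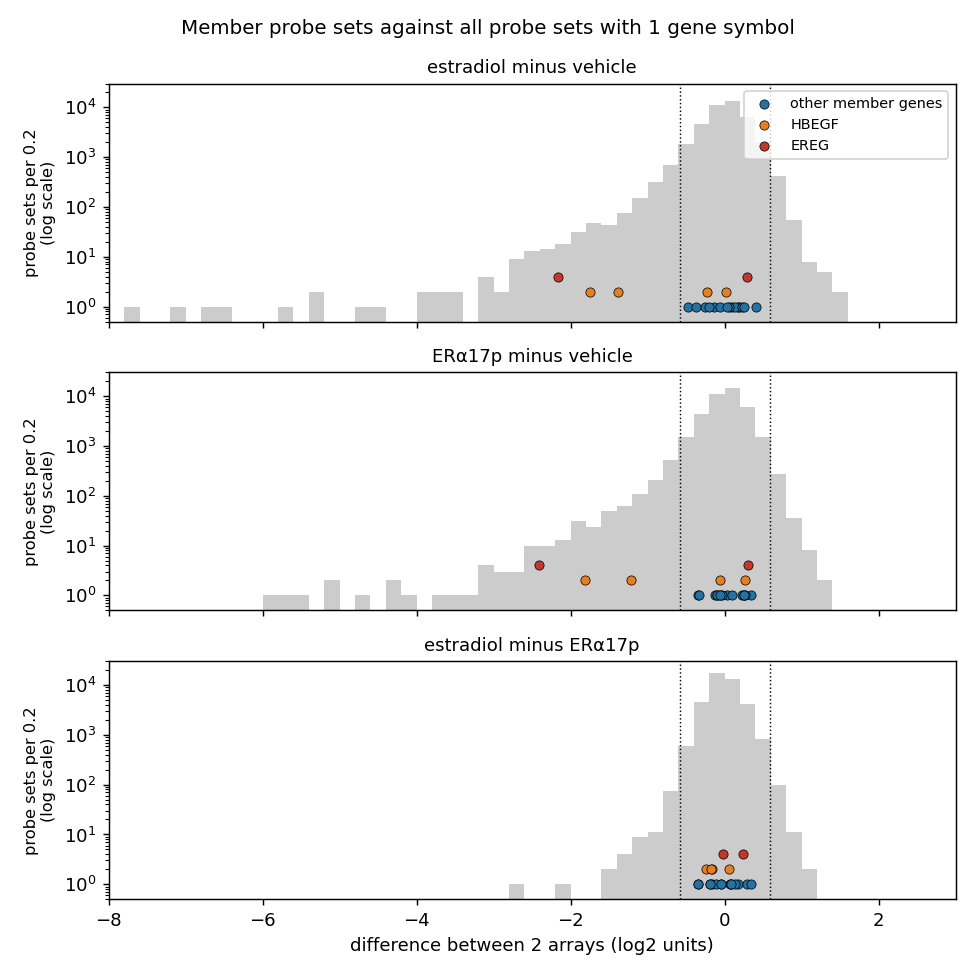
Differences between 2 arrays in log2 units (horizontal axis) for member probe sets (points, at arbitrary height) over a histogram of all 41091 probe sets with 1 symbol (grey, log-scaled counts per 0.2 units), with dotted lines at 1.5-fold. In both comparisons with vehicle 1 probe set of EREG and 2 of HBEGF lie left of the dotted line, from -1.21 to -2.41, and in estradiol minus ERα17p all 21 lie between the lines.

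With the median over probe sets as a gene's value, 2 of 7 genes were lower with estradiol than with vehicle, EREG by -0.94 and HBEGF by -0.77. The share over all genes was 2.93% lower and 0.809% higher. With ERα17p the same 2 of 7 were lower, by -1.05 and -0.64, beside 2.14% lower and 0.582% higher. These gene values average probe sets that disagree and understate the 3 that differed. Both genes missed 1.5-fold after quantile normalisation of the 3 arrays, with -0.35 and -0.46 for estradiol and -0.50 and -0.29 for ERα17p. Between the treatments 0 of 7 genes passed, beside 0.207% lower and 0.147% higher. Gene values for estradiol minus ERα17p ran from -0.35 (EGF) through BTC (-0.20), HBEGF (-0.13), TGFA (-0.05), NRG1 (-0.01) and EREG (0.11) to NRG2 (0.23). With 1 array each, no neighbours in that order can be told apart.

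The genes most like each of the 2 members over the 3 arrays, by Euclidean distance between probe set values, were found among all probe sets with 1 symbol. Nearest to EREG (205767_at) were NR4A3, an orphan nuclear receptor gene, at 0.14 log2 units, ZFP36, which encodes an mRNA decay factor, at 0.19, and the AP-1 gene FOS at 0.20. For HBEGF (203821_at) they were the NF-kB subunit gene REL at 0.03, the prostaglandin receptor gene PTGER4 at 0.06 and the AP-1 gene FOSB at 0.10. Likeness over 3 arrays rests mostly on height on the vehicle array: it was 2.19, 2.16 and 2.22 for the first 3 genes and 1.87, 1.89 and 1.86 for the others. The probe sets named for NR4A3, REL and PTGER4 were each 1 of 3, 5 and 2 for their gene.

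The receptors of these ligands differed little. Gene values of EGFR were 0.01 with vehicle, -0.03 with estradiol and -0.03 with ERα17p, and those of ERBB2 were -0.06, -0.04 and -0.01. ERBB3, which binds the neuregulins, had -0.23, -0.01 and -0.02, so that both treated arrays lay above vehicle, by 0.22 and 0.21. ERBB4 had -0.10, -0.09 and -0.01. Of 21 receptor probe sets 1 passed 1.5-fold, 211551_at of EGFR, with -0.10 with vehicle, -0.06 with estradiol and 0.70 with ERα17p. It was higher with ERα17p than with vehicle by 0.80, and estradiol minus ERα17p was -0.76, while the other 8 EGFR probe sets ran from -0.29 to 0.26 for ERα17p minus vehicle. Of all probe sets 0.886% were higher with ERα17p than with vehicle, and 0.29% were lower in estradiol minus ERα17p. The remaining ligands of ERBB4, NRG3 and NRG4, had 1 probe set each, with estradiol minus vehicle at -0.06 and 0.21 and ERα17p minus vehicle at -0.16 and 0.26.

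Of 12 shedding and processing genes, 0 passed in any comparison, nor did any of their 31 probe sets, with medians of -0.00 and 0.04 for estradiol and ERα17p against vehicle and -0.07 for the treatments against each other. The medians over all genes were 0.03, 0.03 and -0.01 in that order. Of all genes 2.93% were lower and 0.809% higher with estradiol than with vehicle, and 2.14% and 0.582% with ERα17p. Over all probe sets the shares were 3.71% and 1.38% with estradiol, and 2.76% and 0.886% with ERα17p. At such shares a count of 0 in a list of this size says little about these genes. ADAM17, the main ligand sheddase, had 0.25 with vehicle, -0.06 with estradiol and 0.03 with ERα17p. FURIN, a proprotein convertase, had -0.14, -0.03 and 0.08.

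Among 11 genes that restrain the receptors, 1 was lower in both vehicle comparisons (all genes: 2.93% with estradiol, 2.14% with ERα17p). It was ERRFI1, which encodes the ERBB inhibitor MIG6 and is itself switched on by ERBB signalling. Its only probe set had 1.33 with vehicle, 0.09 with estradiol and 0.01 with ERα17p, a difference of -1.24 and -1.32, and of -0.60 and -0.71 after quantile normalisation. SOCS4, a suppressor of cytokine signalling gene, had 0.54, 0.01 and -0.01, which stayed short of 1.5-fold (-0.53 and -0.55), although 1 of its 2 probe sets passed it (-0.60 and -0.79). In all, 8 of the 11 genes lay below 0 with estradiol and 9 with ERα17p, with list medians of -0.09 and -0.13. Over all genes 8658 of 19775 lay below 0 with estradiol and 8287 with ERα17p, with medians of 0.03 and 0.03. Of the 31 probe sets of this list, 2 were lower and 1 higher with estradiol, and 3 were lower and 0 higher with ERα17p. The shares over all probe sets were 3.71% and 1.38% with estradiol, and 2.76% and 0.886% with ERα17p.

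Of 19 measured genes of proximal signalling, 1 passed, being lower in both vehicle comparisons (all genes: 2.93% lower with estradiol, 2.14% with ERα17p). STAT5A, a transcription factor gene, had 1.05 with vehicle, -0.10 with estradiol and 0.02 with ERα17p on its only probe set, differences of -1.15 and -1.03. They were -0.73 and -0.58 after quantile normalisation, the second short of 1.5-fold. PIK3R1, the gene of the regulatory PI3-kinase subunit, had the next largest difference by gene value, -0.41 for ERα17p minus vehicle, and 1 of its 3 probe sets passed 1.5-fold (-0.71 with estradiol and -0.95 with ERα17p). On 243213_at of STAT3 the differences were -0.47 and -1.01, while the gene value of STAT3 differed by 0.04 in both vehicle comparisons. Of the 66 probe sets of the list, 3 were lower and 1 higher with estradiol, and 3 were lower and 0 higher with ERα17p. Over all probe sets it was 3.71% and 1.38% with estradiol, and 2.76% and 0.886% with ERα17p. The list's medians were 0.03, 0.05 and -0.02. Of 7 genes of the ERBB2 amplicon 0 passed, nor did any of their 10 probe sets, the largest differences being those of GRB7 (0.28, ERα17p minus vehicle) and PNMT (0.26, estradiol minus ERα17p).

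**Figure D3:**
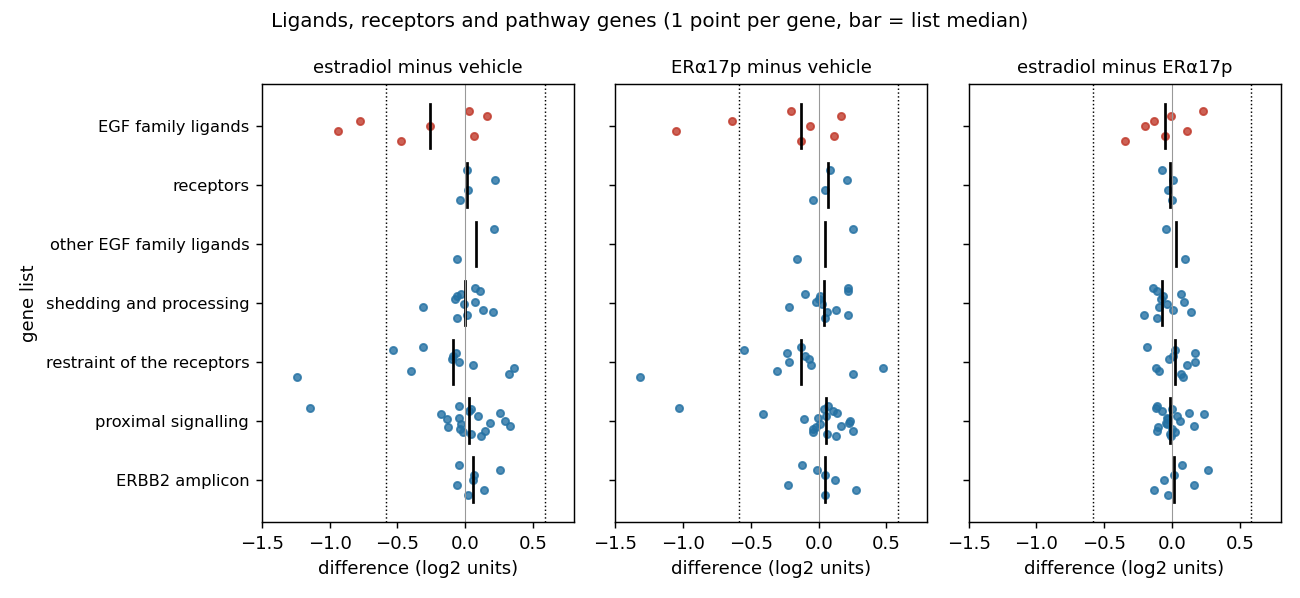
Difference of each gene in log2 units (points, 1 per gene, spread vertically for legibility) in the 3 comparisons, by list, with the list median as a black bar and dotted lines at 1.5-fold. Left of the line lie EREG and HBEGF among the ligands, ERRFI1 among the genes that restrain the receptors and STAT5A among proximal signalling genes, in both comparisons with vehicle and not in estradiol minus ERα17p.

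Marker lists of cell types were read as differences only. Of 8 luminal, 4 leukocyte, 6 fibroblast and 6 endothelial markers measured, 0 passed 1.5-fold in any comparison by gene value. Over all genes 2.93% were lower with estradiol than with vehicle and 2.14% with ERα17p. For estradiol minus vehicle the medians were 0.01 (luminal), -0.09 (leukocyte), 0.07 (fibroblast) and 0.16 (endothelial), and for ERα17p minus vehicle 0.03, -0.05, 0.08 and 0.09. Single leukocyte genes ran both ways, with CD3E at 0.42 and 0.45 and ITGAM at -0.18 and -0.44. Of the 60 probe sets of these markers, 1 was lower and 2 higher with estradiol, and 1 was lower and 0 higher with ERα17p. Over all probe sets 3.71% were lower and 1.38% higher with estradiol, and 2.76% and 0.886% with ERα17p.

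Position on the chromosome was compared next, using the 5 nearest measured and named genes on either side. Around the EREG, AREG, BTC and EPGN cluster on chromosome 4, 1 of 10 neighbours was lower by gene value in the vehicle comparisons (all genes: 2.93% with estradiol, 2.14% with ERα17p). This was the neutrophil chemokine gene CXCL3, with 4.02 with vehicle, 0.12 with estradiol and -0.11 with ERα17p (differences from vehicle of -3.90 and -4.13, and of -1.66 and -1.95 after quantile normalisation). CXCL2, another neutrophil chemokine gene, had a gene value of 0.05 with vehicle, -0.07 with estradiol and 0.03 with ERα17p, but its 3 probe sets disagreed. On 209774_x_at it had 4.40 with vehicle, -0.03 with estradiol and 0.03 with ERα17p, differences from vehicle of -4.43 and -4.37, and an ID ending in _x_at marks probes that can take up transcripts of similar genes. Its other 2 probe sets had differences from vehicle between -0.11 and 0.16. CXCL5, with 3 probe sets, had none past 1.5-fold. MTHFD2L, which lies between the chemokine genes and the cluster, had 0.20, 0.10 and 0.03. By gene value, genes beyond BTC did not pass, but single probe sets there did. Against vehicle these were 212743_at of RCHY1 (-0.59 with estradiol), 204687_at of PARM1 (0.59 with estradiol) and 235653_s_at of THAP6 (-0.72 with ERα17p). The last was also higher in estradiol minus ERα17p (0.62), where 0.314% of all probe sets were higher. Of all 28 probe sets of these 10 neighbours, 3 were lower and 1 higher with estradiol than with vehicle, and 3 were lower and 0 higher with ERα17p. The shares over all probe sets were 3.71% and 1.38% with estradiol, and 2.76% and 0.886% with ERα17p. Around HBEGF on chromosome 5, whose list of neighbours includes NRG2, 1 of 10 was lower with ERα17p than with vehicle (all genes: 2.14%). It was ANKHD1, an ankyrin repeat gene (-0.66, and -0.46 after quantile normalisation), which had -0.58 with estradiol, just short of 1.5-fold.

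**Figure D4:**
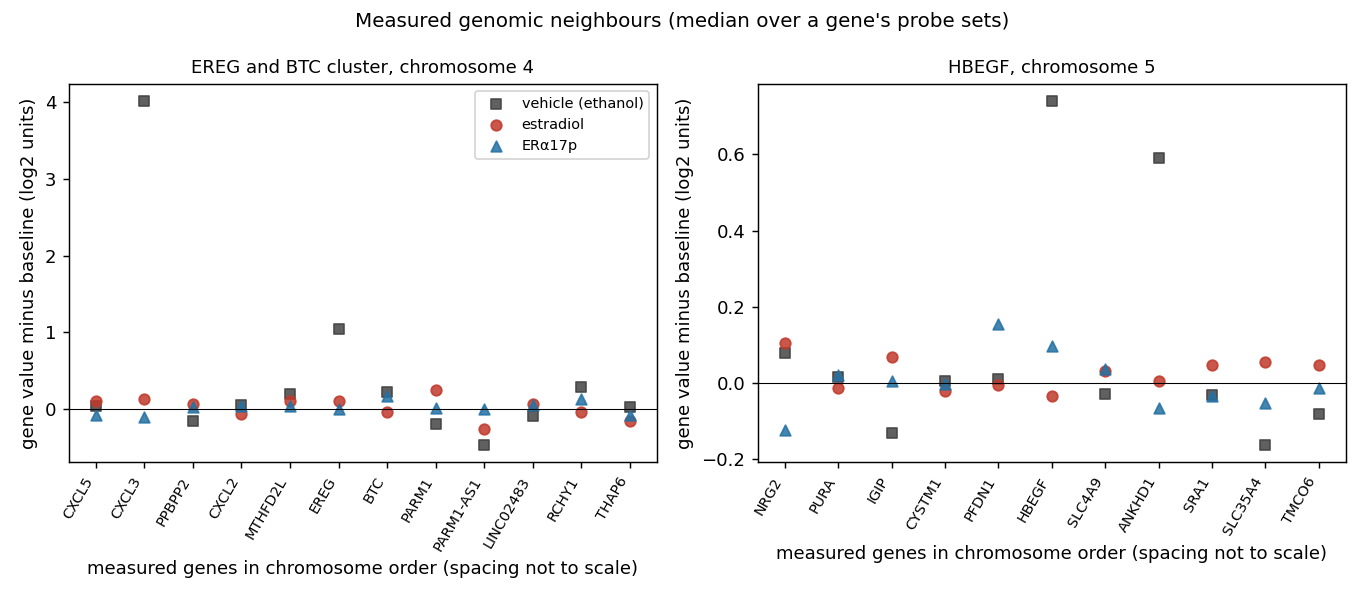
Gene values (median over probe sets, log2 units from the baseline) on the vehicle, estradiol and ERα17p array for measured genes in chromosome order around the EREG and BTC cluster (left) and HBEGF (right), with unequal vertical scales. On the vehicle array CXCL3 lies at 4.02, EREG at 1.04, HBEGF at 0.74 and ANKHD1 at 0.59, and no other gene value shown exceeds 0.59 on any array. CXCL2 is drawn near 0, at the median of 3 probe sets of which 1 had 4.40 on the vehicle array.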

How the data were processed

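RNA of 3 SKBR3 samples was hybridised to 1 Affymetrix array each, and groups came from the sample labels. The authors used RMA, per the submitters' processing notes, of which no version is given. The deposited values, read as log2, have column medians of -0.02, -0.00 and 0.00, and in 7.28% of probe sets 2 of the 3 columns are mirror images around 0 (tolerance 1e-06). They were therefore taken as distances from a baseline per probe set to which other arrays contributed; no filter on dim probe sets was possible. The number of arrays limits the precision.

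Of 54675 probe sets, 41091 had 1 gene symbol in the platform annotation (Entrez IDs matched for 41037 in GRCh38.p14, and 0 symbols changed), 1801 had several, 11721 were unnamed here and 62 were controls. Differences between 2 arrays were taken per probe set and between gene values, the median over probe sets, with pandas 2.3.3. No test was possible with 1 array per condition, and 1.5-fold was the size rule. Promoters are RefSeq sequences. The members and lists were chosen with earlier results of these data known. Named genes were all members, list genes past 1.5-fold or else the 2 with the largest absolute difference, the 4 receptors and the 3 genes nearest to each member past 1.5-fold. CXCL2, CXCL5, MTHFD2L, RCHY1, PARM1, THAP6, STAT3 and the markers CD3E and ITGAM were added after their values were seen. Alternatives were array medians, quantile normalisation, probe sets without those ending in _x_at or _s_at, the authors' baseline, 2-fold, and the mean or widest probe set. The counting step was tested on simulated data.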

Additional observations from a re-analysis of the deposited data

How the results depend on the processing

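With the authors' baseline in place of the vehicle array, 0 member probe sets and 0 member genes passed 1.5-fold for estradiol or for ERα17p. EREG then had 0.10 with estradiol and HBEGF 0.10 with ERα17p, both of opposite sign to their differences from vehicle. This follows from the construction, since both treated arrays lie near that baseline. No more than 0.056% of all probe sets with 1 symbol lay 1.5-fold above it, or 1.5-fold below it, on either treated array. After quantile normalisation 0 member genes passed in either comparison with vehicle, while 3 of the 3 probe sets still did with estradiol and 2 with ERα17p, 38037_at of HBEGF being lost at -0.48. Here too the shrinkage follows in part from the construction, since the normalisation gives the wider vehicle array the same spread as the treated arrays. With a 2-fold rule 0 genes passed for estradiol and 1 for ERα17p (EREG), and 3 probe sets passed for each. The shares over all probe sets and genes were not taken at 2-fold or after quantile normalisation. These member counts therefore show only which members stayed past the rule, not whether that is unusual. The other 26 of 34 counts were within 1.5 times the reported one, and in estradiol minus ERα17p every alternative run gave 0. For single genes 99 of 119 values kept their direction and their side of 1.5-fold. Some of these could not differ, since EGF has 1 probe set and no probe set of EREG, BTC or HBEGF ends in _x_at or _s_at. No paired analysis was possible because each condition has 1 array. No replicate could be left out for the same reason. Signal over background is unknown for every probe set, so that a probe set near 0 on all arrays may be unexpressed or unchanged.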
